A study of Mus musculus with 4 samples.

Results

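Naive T cells and the stem-like T cells that keep renewing a response share a set of genes, and 9 of them were followed here through the lymphoid cells of tumour-bearing mouse liver: Tcf7, Lef1, Satb1, Klf2, Foxp1, Ccr7, Il7r, S1pr1 and Dapl1. They were taken by symbol, 9 of the 31053 genes counted, and were chosen with earlier results of these data known. The study profiled single cells from livers of male mice of 8 weeks in a model of surgical stress and liver metastasis; their tumours grew from MC38, a murine colorectal line. The Ex group (2 libraries) had exercised before the operation and the Sed group (2 libraries) was sedentary, with no other difference given. Both groups gave their livers at 3 weeks from the injection of tumour cells, and beads enriched the cells that bear CD45, a surface protein of white blood cells. The labels do not say whether the libraries of a group came from separate animals, so p-values measure the spread between these libraries, which may be technical.

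Tcf7 and Lef1 encode the related DNA-binding factors TCF1 and LEF1, which carry Wnt signals and keep T cells in a naive or self-renewing state. Satb1 encodes a chromatin organiser needed for thymocyte development, Foxp1 a forkhead factor that holds naive T cells quiescent, and Klf2 a zinc-finger factor that drives transcription of S1pr1. Ccr7 guides cells into lymph nodes, Il7r receives the survival signal of interleukin 7, and S1pr1 lets cells leave tissue along a gradient of sphingosine 1-phosphate. Dapl1 encodes a small death-associated protein family member that marks naive and memory CD8 T cells. T cells lose most of this programme when antigen drives them to effector or exhausted states, and in chronic responses the PD-1-bearing cells that keep Tcf7 are those called stem-like.

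On GRCm38 the 9 protein-coding genes, in the GENCODE annotation, lie at chr11:52252371-52283014 on the minus strand (Tcf7), chr3:131110471-131224356 on the plus strand (Lef1), chr17:51736187-51833290 on the minus strand (Satb1) and chr8:72319033-72321656 on the plus strand (Klf2). Foxp1 lies at chr6:98925338-99522721 on the minus strand, Ccr7 at chr11:99144196-99155077 on the minus strand and Il7r at chr15:9505788-9530176 on the minus strand. S1pr1 lies at chr3:115710433-115715072 on the minus strand and Dapl1 at chr2:59484653-59505020 on the plus strand.

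Promoter windows of 250 bases upstream of each annotated start were available from RefSeq (GRCm38.p6) for 7 of the 9 genes, 17 windows in all; Ccr7 and S1pr1 are named only. The 3 short motifs of factors within the set searched on both strands were the TCF and LEF core, CTTTG with its other strand CAAAG, the forkhead core, GTAAACA with its other strand TGTTTAC, and the KLF core, CACCC with its other strand GGGTG. The TCF and LEF core stood in 9 of 17 windows, against 48.6% of all 32851 promoter windows, the forkhead core in 1 of 17, against 3.17%, and the KLF core in 13 of 17, against 52.0%. Some windows of a gene overlap, as for Lef1 and Satb1, so a site can be counted in more than 1 window. The 2 windows printed belong to Satb1, the member with an exercise difference in Cd8 T cells, and Dapl1, the member with the smallest adjusted p between T cells with and without a Cd8 UMI. Each runs 5′ to 3′ on the gene's own strand and ends at the base before the gene's start, and capitals mark any of the 3 motifs. The Satb1 window printed (chr17:51833291-51833540) held 2 KLF cores and neither of the others, and the Dapl1 window (chr2:59484403-59484652) held 1 TCF and LEF core and 1 forkhead core. Satb1 had other windows, not printed. Among them those at chr17:51812185-51812434 and chr17:51812055-51812304 overlap and held the same TCF and LEF core, 1 in each. The window at chr17:51832648-51832897 held no motif. A match to so short a motif describes the letters only.
Satb1 promoter: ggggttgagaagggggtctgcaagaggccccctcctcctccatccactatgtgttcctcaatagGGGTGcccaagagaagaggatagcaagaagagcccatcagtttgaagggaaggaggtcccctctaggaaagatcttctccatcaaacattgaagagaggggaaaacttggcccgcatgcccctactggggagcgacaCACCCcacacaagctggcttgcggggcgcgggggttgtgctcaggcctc
Dapl1 promoter: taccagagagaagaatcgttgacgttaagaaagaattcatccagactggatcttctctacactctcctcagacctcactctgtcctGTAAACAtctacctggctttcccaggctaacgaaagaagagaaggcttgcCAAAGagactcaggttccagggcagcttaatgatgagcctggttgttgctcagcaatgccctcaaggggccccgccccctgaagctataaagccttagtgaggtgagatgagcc

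The 4 libraries held 7012 and 5297 cell barcodes (Ex 1 and Ex 2) and 7992 and 8224 (Sed 1 and Sed 2), with 23918964 to 41027638 UMIs each; a UMI is a molecule counted once. After filtering, 5763, 4097, 6839 and 7141 cells were kept in that order of libraries, with median depths of 3284 to 3749 UMIs. A total of 83 barcode sequences occurred in 2 or more libraries. T-like cells, named from Cd3d, Cd3e, Trac and other T cell markers and never from the 9 genes, numbered 933 and 565 in the Ex libraries and 625 and 662 in the Sed libraries. Levels are given in CPM, the UMIs of a gene scaled to a fixed total for the cell group of a library. The libraries are tagged at transcript ends, so a level is not divided by gene length and values are compared within a gene, not between genes.

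Among 12 lymphoid cell groups, 4 of the 9 genes had their highest mean level in 1 T cell cluster, led by Igfbp4 and Trnp1 and left without a type name. Clusters were drawn from the same cells, so these levels are a description without a test. In that cluster Tcf7 averaged 468 CPM (363 to 567 over 4 libraries), Lef1 510 CPM (346 to 621), Satb1 448 CPM (291 to 655) and Dapl1 296 CPM (241 to 386). The ranges of Lef1 and Dapl1 lay apart from those of the next group in order, and those of Tcf7 and Satb1 overlapped theirs. Levels were low in the CD8 T-like cluster, whose leading genes included Gzmk, Lag3, Nr4a2 and Tox, with 8.95 CPM of Tcf7, 16.5 of Lef1, 38.1 of Satb1 and 4.91 of Dapl1 over the 2 Sed libraries. It was last of the 12 groups for Satb1, Klf2 and Foxp1, rank 10 for Tcf7 and Lef1 and rank 7 for Dapl1. Only Sed 1 and Sed 2 held 30 or more cells of it (237 and 429 cells, against 6 and 8 in Ex 1 and Ex 2), so its levels are those of the Sed libraries.

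The other members spread over more cell types. Foxp1 was highest in B-like cells, with 714 CPM (527 to 1017 over 4 libraries), apart from the 345 CPM of the Igfbp4 and Trnp1 cluster. Ccr7 averaged 340 CPM in B-like cells and 312 CPM in the Igfbp4 and Trnp1 cluster, with overlapping ranges, and was not found in gamma-delta T-like cells. Outside the lymphocytes, Ccr7 reached 1592 and 2642 CPM in migratory dendritic-like cells of Ex 1 and Ex 2, against 1209 and 1943 CPM in those of Sed 1 and Sed 2; these rest on 43, 15, 12 and 51 cells in the same order. Klf2 and S1pr1 had their highest means in a T cell cluster led by Tbc1d4 and Cx3cr1, which also carried Cd4, at 1075 and 358 CPM over the 2 Ex libraries. In both cases the range overlapped that of the Igfbp4 and Trnp1 cluster (988 CPM of Klf2 and 226 CPM of S1pr1).

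Il7r had its highest mean in gamma-delta T-like cells, at 1168 CPM (939 to 1396 over 2 libraries), apart from the 739 CPM of the Igfbp4 and Trnp1 cluster. It was lowest in NK-like cells, at 8.51 CPM. Innate lymphocytes held some of the 9 genes at high levels and others near 0: NK-like cells averaged 263 CPM of Satb1, 550 CPM of Klf2 and 110 CPM of Tcf7, but 1.69 CPM of Ccr7 and 1.35 CPM of Dapl1. B-like cells in turn averaged 1.504 CPM of Tcf7, 3.68 CPM of Lef1 and 0.499 CPM of Dapl1. In Treg-like cells, the regulatory T cells, Il7r was at 67.0 and 170 CPM in Ex 1 and Ex 2, against 813 and 717 CPM in Sed 1 and Sed 2. The groups lay apart, but these sums rest on 79, 55, 27 and 38 cells in the same order and were not tested.

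**Figure D1:**
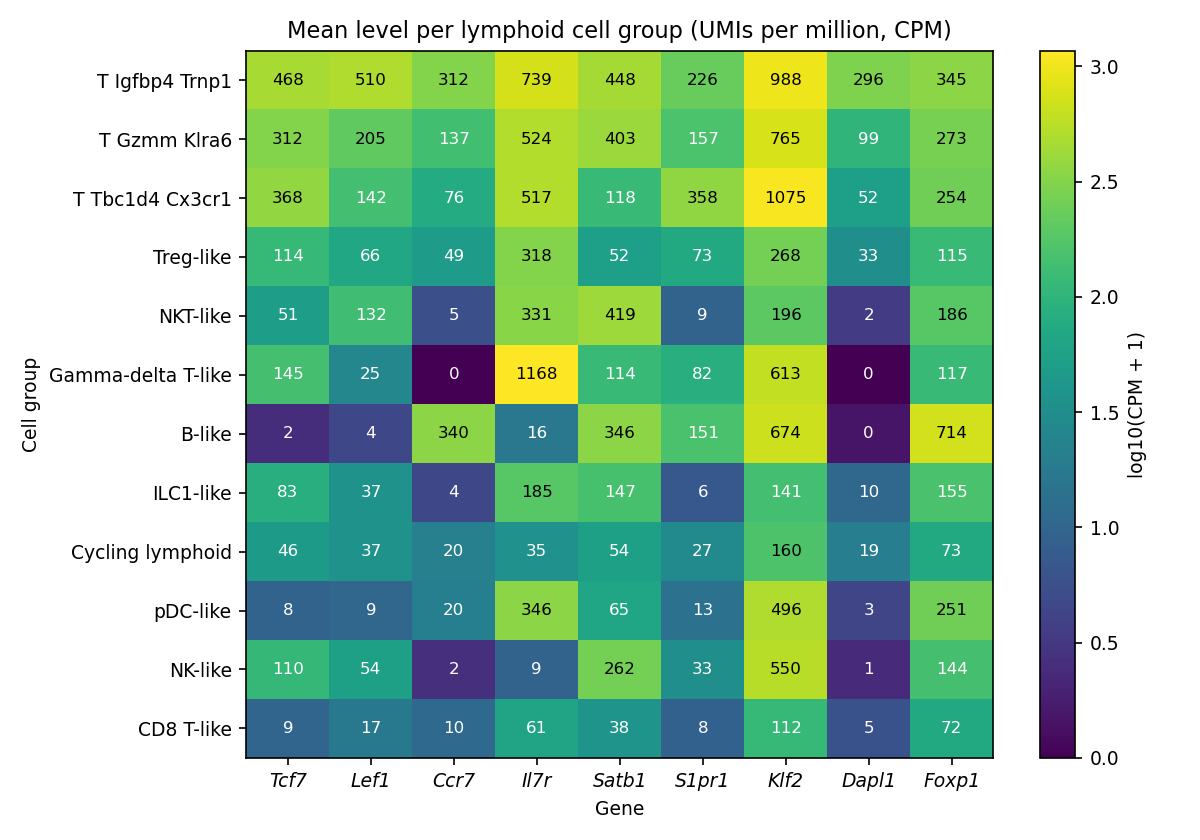
Mean level of each of the 9 genes (columns) in each lymphoid cell group (rows), averaged over the libraries with at least 30 cells of that group and coloured as log10(CPM + 1). Tcf7, Lef1, Satb1 and Dapl1 are highest in the Igfbp4 and Trnp1 T cell cluster (468, 510, 448 and 296 CPM), Foxp1 in B-like cells (714 CPM) and Il7r in gamma-delta T-like cells (1168 CPM).

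The members resembled each other to unequal degrees across these cells. Over 39 sums of a library and a lymphoid cell group, the log2 levels of Lef1 and Tcf7 had a Pearson correlation of 0.859, those of S1pr1 and Ccr7 of 0.779 and those of Klf2 and S1pr1 of 0.761. Foxp1 and Tcf7 were at -0.057, with Foxp1 also high in B-like cells, where Tcf7 was near 0. The sums share libraries and cell types and are not independent, so no p-value is given. Outside the set, the genes whose level was most like the mean of the 9 were Crlf3 (r = 0.854), Ssh2 (0.844), Il6ra, the interleukin 6 receptor (0.819), Pdk1, a mitochondrial kinase of glucose use (0.807), and Rapgef6 (0.806), among genes with a mean of at least 20 CPM.

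T-like cells were next divided by whether they held at least 1 UMI of Cd8a or Cd8b1, which encode the chains of the CD8 co-receptor. Cells with such a UMI are called Cd8 T cells here, though some of them lay in clusters of other types, such as the Treg-like and NKT-like ones. Those without include CD4, regulatory, gamma-delta and NKT-like cells and any CD8 cell whose Cd8 transcripts were missed. Cd8 T cells numbered 374 and 248 in Ex 1 and Ex 2 and 392 and 478 in Sed 1 and Sed 2. Their median depth was 5990, 5771, 4716 and 2909 UMIs in the same order, against 3502, 4002, 3428 and 2333 UMIs in T cells without a Cd8 UMI.

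None of the 9 genes changed between Cd8 T cells and T cells without a Cd8 UMI with all 4 libraries in 1 fit (edgeR quasi-likelihood test with the library as a block, Benjamini-Hochberg adjusted p under 0.05; 2.74% of 8954 genes passed, 0.614% as higher and 2.12% as lower, and 1266 genes were at an unadjusted p under 0.05). Dapl1 was the member with the smallest adjusted p. It stood at 139, 162, 109 and 30.002 CPM in Cd8 T cells of Ex 1, Ex 2, Sed 1 and Sed 2, against 54.4, 35.5, 99.3 and 22.2 CPM in T cells without a Cd8 UMI of the same libraries. Dapl1 was thus higher in Cd8 T cells of 4 of 4 libraries, by 1.26 ± 0.42 (log2, SE; edgeR adjusted p = 0.285). Dapl1 passed under 5 of 17 other settings: without Sed 1 (1.75, edgeR adjusted p = 0.0155), without the filter on low counts (1.28), against cells with a Cd4 UMI alone (1.21), without T cells with UMIs of other cells (1.42) and without the CD8 T-like cluster (1.87). It was lowest, at 0.28, without the Treg-like, gamma-delta-like and NKT-like clusters. Of all genes tested, 24.7% kept 1 direction in all 4 libraries and 5.07% were higher in all 4. Il7r was higher in Cd8 T cells of 1 library of 4, with a log2 difference of -0.74 ± 0.58, and the other 7 members had log2 differences of -0.41 to 0.55. The members' median was -0.06, against 0.02 over all genes tested. Without the CD8 T-like cluster, a setting chosen after the data were seen, 7 of the 9 passed as higher, where 658 of 8152 genes did. Il7r and S1pr1 did not pass. That setting takes out cells low in these genes, so it describes the cells that remain.

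For some members the 2 groups of mice ran in opposite directions here, as the levels of each library show. Tcf7 stood at 278 and 393 CPM in Cd8 T cells of Ex 1 and Ex 2, against 208 and 254 CPM in T cells without a Cd8 UMI. In Sed 1 and Sed 2, Tcf7 stood at 145 and 45.6 CPM in Cd8 T cells, against 254 and 124 CPM in T cells without a Cd8 UMI. Tcf7, Lef1, Satb1, S1pr1 and Foxp1 were each higher in Cd8 T cells of both Ex libraries and lower in those of both Sed libraries. The other members did not follow this: Dapl1 was higher in Cd8 T cells of 4 libraries, Ccr7 of 3, and Il7r and Klf2 of 1 each. The share of all genes with this pattern was not counted.

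**Figure D2:**
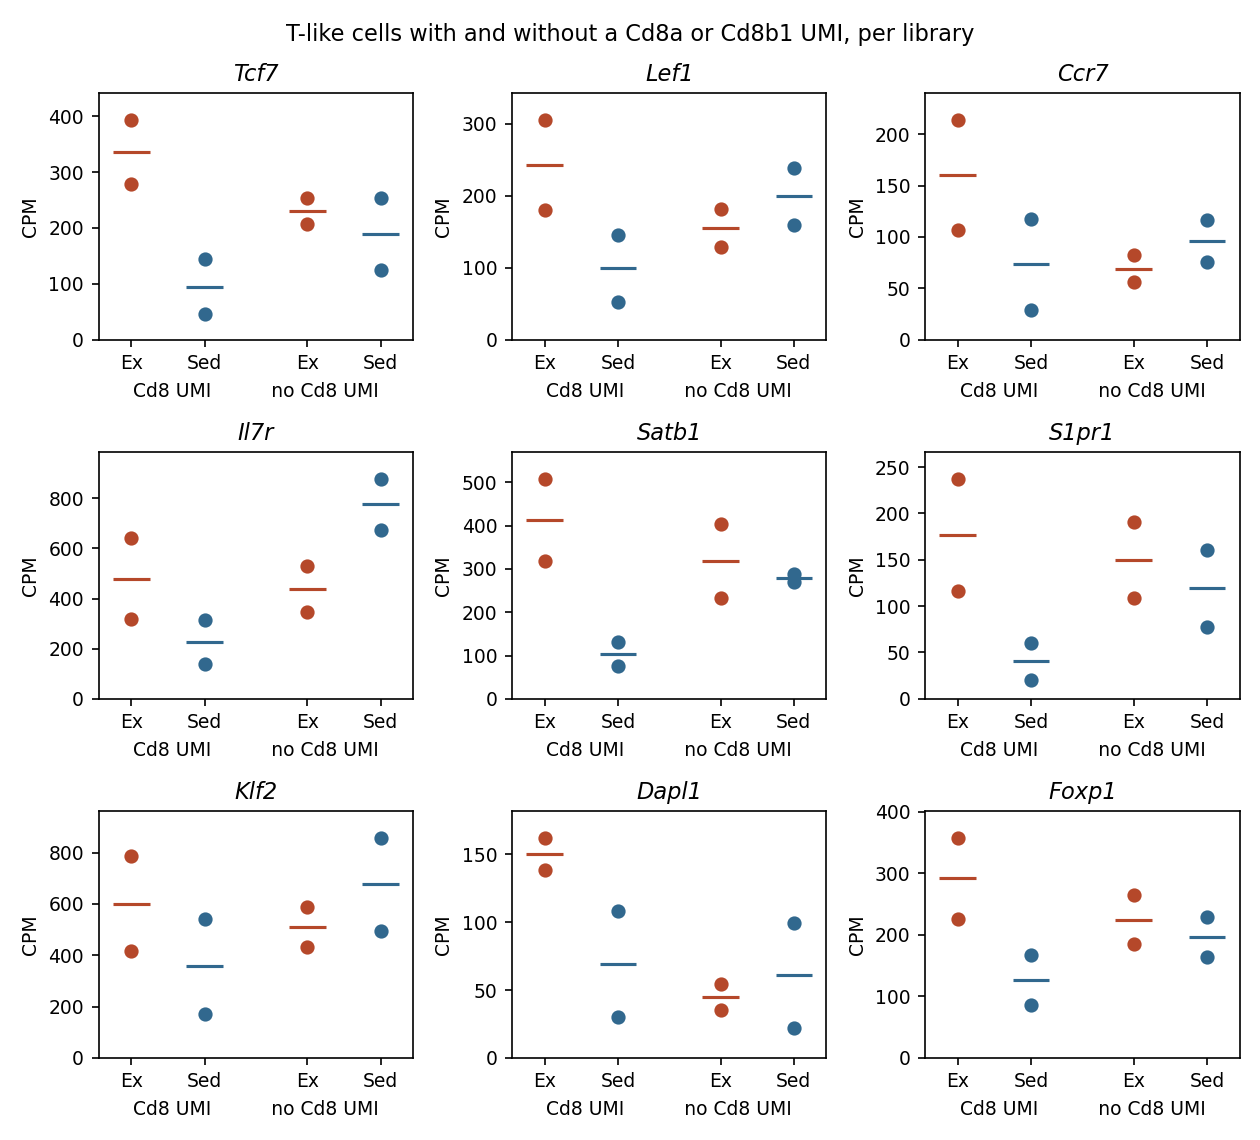
Level (CPM, linear axes from 0) of each member in T-like cells with a Cd8a or Cd8b1 UMI (left pair) and without (right pair), 1 point per library, Ex left of Sed, with the mean of each pair of libraries. For Tcf7, Cd8 T cells of the Ex libraries are at 278 and 393 CPM and those of the Sed libraries at 145 and 45.6 CPM.

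Within Cd8 T cells, Satb1 was the only member that passed the test between Ex and Sed (1 of 9; 6.77% of the 8518 genes tested passed, 2.69% of them as higher in Ex). Satb1 stood at 317 and 508 CPM in Ex 1 and Ex 2, against 132 and 76.2 CPM in Sed 1 and Sed 2, and the groups lay apart. It was higher in Ex by 2.01 ± 0.32 (log2, SE, n = 2 libraries each; edgeR adjusted p = 0.00124). Tcf7 stood at 278 and 393 CPM in Ex and 145 and 45.6 CPM in Sed, a log2 difference of 1.82 ± 0.72 that did not pass (adjusted p = 0.326). Lef1, its relative, stood at 180 and 305 CPM in Ex and 146 and 52.8 CPM in Sed, with a log2 difference of 1.30 ± 0.67 (adjusted p = 0.425). For both genes the groups lay apart, and Sed 2 was the lowest library.

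Foxp1 stood at 226 and 358 CPM in Cd8 T cells of Ex, against 168 and 85.2 CPM of Sed, with a log2 difference of 1.23 ± 0.36 (edgeR adjusted p = 0.0807). Klf2, at 416 and 787 CPM in Ex and 541 and 172 CPM in Sed, overlapped between the groups. S1pr1, one of its targets, did not overlap, at 117 and 237 CPM in Ex and 60.3 and 20.4 CPM in Sed, and had the largest log2 difference of the set, 2.13 ± 0.75 (edgeR adjusted p = 0.283). Ccr7 overlapped, at 107 and 214 CPM in Ex and 118 and 29.4 CPM in Sed.

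Il7r stood at 317 and 640 CPM in Cd8 T cells of Ex and 313 and 140 CPM of Sed, so that Ex 1 and Sed 1 were nearly level. Dapl1 stood at 139 and 162 CPM in Ex and 109 and 30.002 CPM in Sed. In 7 of the 9 genes both Ex libraries lay above both Sed libraries, against 21.3% of all genes tested (48.5% lay apart in either direction), and the members' median log2 difference was 1.23, against 0.0062 over all genes. The number that passed moved with the setting. Without the filter on low counts 7 of 9 genes passed as higher in Ex (353 of 14901 genes did). Leaving out a library leaves 1 library in its group, which is then assumed to vary like the other group, so only effect sizes are given. The members' log2 differences were 1.90 to 3.24 without Sed 1 and 0.12 to 1.61 without Sed 2. They were 0.24 to 1.64 without Ex 2 and 1.16 to 2.56 without Ex 1. Satb1 no longer passed when doublets were kept (edgeR adjusted p = 0.0832).

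Among T cells without a Cd8 UMI, none of the 9 genes passed between Ex and Sed, as none of 7592 genes did (0% called by edgeR, 656 genes at an unadjusted p under 0.05, 4 genes by DESeq2). Il7r ran opposite to its direction in Cd8 T cells, at 345 and 530 CPM in Ex 1 and Ex 2, against 878 and 675 CPM in Sed 1 and Sed 2. It was the only member whose groups lay apart here, as those of 39.7% of all genes tested did (25.9% as higher in Ex), with a log2 difference of -0.98 ± 0.31 (edgeR adjusted p = 0.484). Tcf7 stood at 208 and 254 CPM in Ex and 254 and 124 CPM in Sed, and Satb1 at 232 and 404 CPM in Ex and 270 and 289 CPM in Sed, both overlapping. The members' median log2 difference was -0.54, against 0.002 over all genes tested. In Ex 1 these cells held 2061 CPM of 4 red cell markers, against 8.14 to 35.5 CPM in the other libraries, and the part of that in the result was not tested. The clusters these cells lay in also differed between libraries, as given below, and the part of that was not tested. Without Sed 2, where the spread comes from the Ex libraries alone, 5 of the 9 genes passed as lower in Ex (Il7r, Klf2, Ccr7, Lef1 and Dapl1), as did 296 of 8562 genes.

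The difference between the 2 exercise changes was tested directly, in 1 fit over both kinds of T cell with the library as a block. All 9 genes passed, each with a more positive Ex over Sed change in Cd8 T cells than in T cells without a Cd8 UMI (9 of 9; 9.94% of 8954 genes passed, 4.09% in this direction and 5.85% in the other). Among the transcription factors the difference was 1.96 ± 0.19 (log2, SE) for Satb1 (edgeR adjusted p = 2.58e-11), 1.80 ± 0.20 for Lef1 (1.82e-09) and 1.70 ± 0.19 for Tcf7 (8.31e-10). It was 1.37 ± 0.22 for Klf2 (edgeR adjusted p = 3.99e-04) and 1.16 ± 0.19 for Foxp1 (4.37e-06). Of the receptors, Il7r had 2.06 ± 0.18 (edgeR adjusted p = 1.64e-10), S1pr1 1.95 ± 0.22 (1.27e-09) and Ccr7 1.69 ± 0.27 (3.84e-05), and Dapl1 had 1.68 ± 0.28 (1.17e-05). The members' median was 1.70, against -0.0019 over all genes. Without Sed 1, Dapl1 no longer passed (1.33, adjusted p = 0.172), and the other 8 did.

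Which Cd8 T cells each library held moved with this result. The largest cluster of Cd8 T cells in the Ex libraries was led by Gzmm and Klra6, with 187 of 374 cells in Ex 1 and 122 of 248 in Ex 2. The Igfbp4 and Trnp1 cluster held 50 and 71 of them, and a cluster led by Ifit1 and Iigp1 held 84 and 18. In the Sed libraries most lay in the CD8 T-like cluster led by Gzmk and Lag3, with 235 of 392 cells in Sed 1 and 416 of 478 in Sed 2, against 4 in Ex 1 and 8 in Ex 2. The next largest cluster of Sed 1 was the Igfbp4 and Trnp1 cluster (125 cells). T cells without a Cd8 UMI differed in make-up too. The Igfbp4 and Trnp1 cluster held 52 of 559 and 33 of 317 of them in Ex 1 and Ex 2. In Sed 1 and Sed 2 it held 123 of 233 and 17 of 184. Gamma-delta T-like cells, the group highest in Il7r, made up 8.94% and 6.31% of them in Ex and 4.72% and 20.7% in Sed. The part of this make-up in the result was not tested. Bulk sums of a mixed class cannot tell fewer cells of a kind from less RNA per cell, so the tests were repeated without the CD8 T-like cluster, a setting chosen after the data were seen. It takes out cells low in these genes, nearly all of them from Sed, so it describes the cells that remain and tests no cause. None of the 9 genes then passed for the difference of the exercise changes (log2 0.0036 to 0.65, with 21 genes called in all, against 890 before), and none for Ex against Sed within Cd8 T cells (log2 -0.55 to 0.68, with 11 genes called, against 577 before).

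In Cd8 T cells outside that cluster (370 and 240 cells in Ex, 157 and 62 in Sed), Tcf7 stood at 280 and 403 CPM in Ex 1 and Ex 2, against 332 and 219 CPM in Sed 1 and Sed 2. Lef1 stood at 181 and 313 CPM in Ex and 320 and 245 CPM in Sed, and Il7r at 319 and 648 CPM in Ex and 648 and 570 CPM in Sed. Of the 9 genes Satb1 alone kept its groups apart, at 320 and 518 CPM in Ex and 273 and 219 CPM in Sed, without passing (edgeR adjusted p = 0.764). Inside the cluster the 2 Sed libraries held 5.23 and 12.8 CPM of Tcf7, 14.8 and 16.4 CPM of Lef1 and 27.0 and 49.2 CPM of Satb1.

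**Figure D3:**
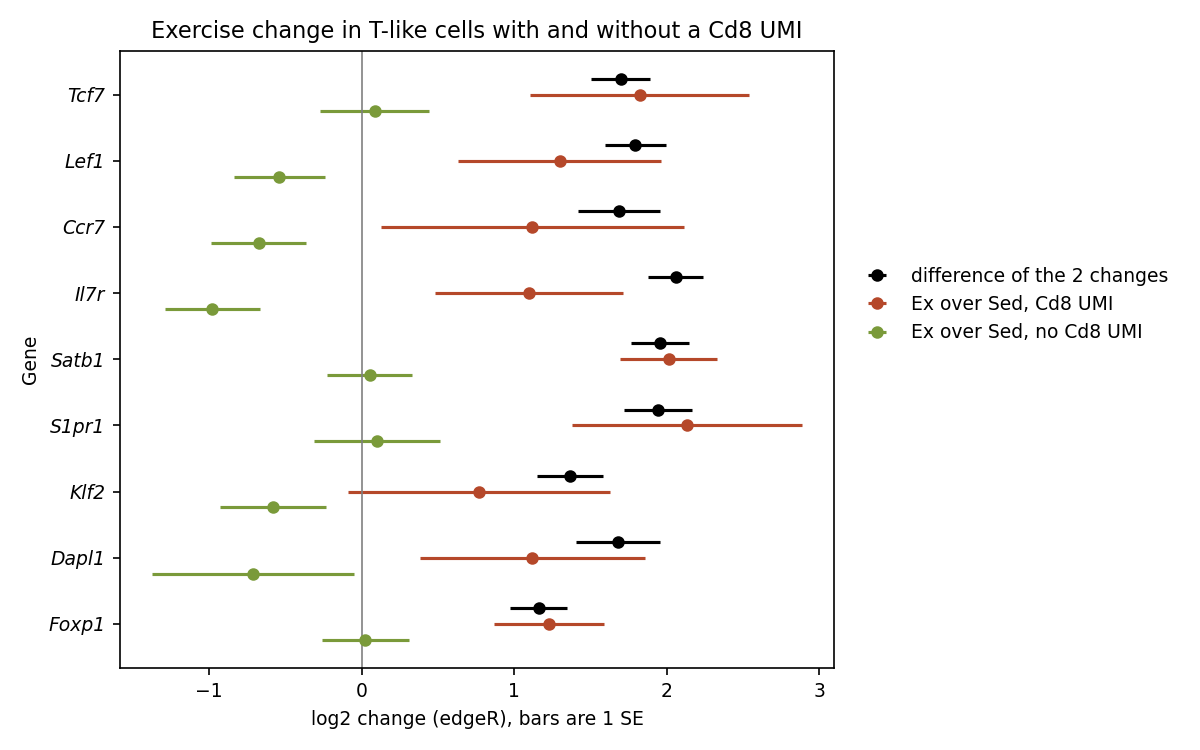
Log2 change with 1 SE (edgeR) of each member between Ex and Sed in Cd8 T cells and in T cells without a Cd8 UMI, with the difference of the 2 changes in black. All 9 differences lie between 1.16 and 2.06, while the change within Cd8 T cells passed for Satb1 alone (2.01).

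Members were also counted per cell. Each T-like cell was thinned to 1500 UMIs, which left out 41 and 14 cells of Ex 1 and Ex 2 and 20 and 94 cells of Sed 1 and Sed 2, and the Cd8 gate was then applied. Cells with UMIs of 3 or more of the 9 genes made up 42.6% and 72.0% of Cd8 T cells in Ex 1 and Ex 2, against 29.4% and 6.30% in Sed 1 and Sed 2. Cd8 T cells without a UMI of any of the 9 made up 9.89% and 4.396% in Ex and 45.0% and 68.0% in Sed. The exact 95% binomial intervals, which cover counting error only, ran from 4.12% to 9.16% for the lowest share of cells with 3 or more (Sed 2) and from 64.9% to 78.4% for the highest (Ex 2). In T cells without a Cd8 UMI the share with 3 or more was 32.3% and 50.1% in Ex and 52.7% and 28.7% in Sed, with no separation of the groups. For Tcf7 alone the thinned share of Cd8 T cells was 33.5% and 41.8% in Ex and 15.02% and 4.53% in Sed. In neutrophil-like cells, which should lack Tcf7, it was at most 0.370% in any library, at median depths before thinning of 2086 to 2590 UMIs.

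Signals of other cells also differed between the groups in Cd8 T cells. The summed level of 8 B cell markers was 150 and 188 CPM in Ex 1 and Ex 2, against 58.3 and 33.0 CPM in Sed 1 and Sed 2, where Ms4a1 and Fcer2a were among those at 0. Of 6 neutrophil markers, 5 were found in Ex 1 and 6 in each other library, at 52.7 and 31.8 CPM in Ex and 374 and 164 CPM in Sed. Of 9 NK cell markers, which include the effector genes Gzma and Prf1, the summed level was 497 and 506 CPM in Ex and 7287 and 9639 CPM in Sed, with Klra8 at 0 in both Sed libraries. The mitochondrial share was 46392 and 49056 CPM in Ex and 32278 and 29193 CPM in Sed. Their part in the result was not tested. A setting chosen after the data were seen left out T cells with UMIs of other cells. These were UMIs of Cd79a, Ighm, Igkc, Lyz2, C1qa, C1qb, S100a8, S100a9 or Ptprb. It did not select on the NK cell markers, the red cell markers or the mitochondrial share. With those T cells left out, the difference of the exercise changes passed for 8 of the 9 genes (log2 1.08 to 3.03). Ccr7 was the member that did not pass. Of all genes tested, 159 of 6063 passed as more positive in Cd8 T cells. Within Cd8 T cells 6 of the 9 then passed, where 125 of 5430 genes passed as higher in Ex. The setting kept 104 of 374 and 64 of 248 Cd8 T cells in Ex 1 and Ex 2, and 120 of 392 and 197 of 478 in Sed 1 and Sed 2. Of T cells without a Cd8 UMI it kept 232 of 559 and 125 of 317 in Ex and 87 of 233 and 81 of 184 in Sed.

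Genes of related programmes, taken from lists chosen with earlier results of these data known, were counted in the same fits. Between Ex and Sed in Cd8 T cells, 2.69% of the 8518 genes tested passed as higher in Ex and 4.09% as lower. The 23 other naive and central memory genes had a median log2 difference of 0.69, against 0.0062 over all genes. Of these 23, 5 were higher in Ex and none lower. Among them were Treml2 (2.38 ± 0.35, edgeR adjusted p = 1.39e-04), Myb (2.54 ± 0.43), a factor of memory cell self-renewal, and Foxo1 (1.53 ± 0.27), the factor upstream of Klf2 and Il7r. All 9 exhaustion genes tested were lower in Ex (median -2.76), among them the inhibitory receptors Havcr2 (-3.55 ± 0.36, edgeR adjusted p = 3.08e-07) and Lag3 (-2.89 ± 0.34). Of 17 effector genes 12 were lower and 1 higher in Ex (median -1.71), with granzyme gene Gzma at -5.52 ± 0.34 (edgeR adjusted p = 3.42e-11) and perforin gene Prf1 at -1.996 ± 0.25. Of 7 residency genes 3 were lower (Rgs1 -2.79 ± 0.30), and of 11 genes of the dissociation response 1 was lower (Dusp1 -1.11 ± 0.24). In T cells without a Cd8 UMI no gene of any of these lists passed, as none of 7592 genes did.

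For the difference of the exercise changes, 4.09% of 8954 genes passed as more positive in Cd8 T cells and 5.85% as more negative. Of the 23 other naive genes 13 were more positive and 1 was more negative, with a median of 1.06. Those more positive included Igfbp4 (2.07 ± 0.25, edgeR adjusted p = 4.93e-09), Il6ra (2.08 ± 0.32) and Bach2 (2.14 ± 0.36), a repressor of effector genes. Of 17 effector genes 11 were more negative and none more positive (Ccl5 -2.65 ± 0.16), as were 7 of 9 exhaustion genes (Tox -2.80 ± 0.25) and 4 of 7 residency genes (Cxcr6 -2.34 ± 0.22). Of 12 dissociation genes 1 was more positive (Fos 0.93 ± 0.21) and 1 more negative (Dusp1 -0.54 ± 0.18).

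Pdcd1 encodes PD-1, the inhibitory receptor of activated and exhausted T cells. Cd8 T cells with a Pdcd1 UMI numbered 17 of 374 and 14 of 248 in Ex 1 and Ex 2, against 118 of 392 and 178 of 478 in Sed 1 and Sed 2. Of the 9 genes, S1pr1 and Lef1 were lower in cells with a Pdcd1 UMI and none was higher (2 of 9; 3.33% of 7454 genes passed, 2.08% as lower and 1.25% as higher). S1pr1 stood at 13.2, 49.9, 14.5 and 14.9 CPM with a Pdcd1 UMI in Ex 1, Ex 2, Sed 1 and Sed 2, against 124, 253, 84.4 and 24.8 CPM without (log2 -2.31 ± 0.30, edgeR adjusted p = 3.62e-04). The sums with a Pdcd1 UMI rest on 2, 6, 10 and 11 UMIs of S1pr1. Lef1 stood at 92.3, 58.2, 18.8 and 29.9 CPM with a Pdcd1 UMI, against 186, 326, 212 and 71.0 CPM without (-2.27 ± 0.40, edgeR adjusted p = 0.0327).

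All 9 genes were lower with a Pdcd1 UMI in 4 of 4 libraries. Of all genes tested, 27% kept 1 direction in all 4, 18.8% as higher and the rest as lower. The 7 members that did not pass had log2 differences of -2.27 (Ccr7) to -1.22 (Foxp1). The members' median was -2.10, against -0.03 over all genes. The call of S1pr1 was lost when each cell was first thinned to 1500 UMIs (edgeR adjusted p = 0.335). That of Lef1 was lost without Ex 2 (adjusted p = 0.117), with doublets kept (0.051), with stricter cell filters (0.082) and at cluster resolution 2 (0.0764). Over all 13 other settings 1 to 8 of the 9 genes passed as lower and none as higher. With sums thinned to the smallest total 8 passed (96 of 2116 genes were lower). By DESeq2 and without Sed 2, 6 passed (59 of 7454 and 247 of 7569 genes lower). Without the filter on low counts and with each cell thinned, 5 passed (264 of 14901 and 8 of 3210 genes lower).

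Tcf7 within PD-1-bearing cells is the mark by which stem-like cells are usually named. It stood at 218, 275, 11.6 and 21.7 CPM in Cd8 T cells with a Pdcd1 UMI of Ex 1, Ex 2, Sed 1 and Sed 2, against 282, 403, 215 and 64.6 CPM in those without. Of cells with a Pdcd1 UMI, 12 of 17 and 5 of 14 held a Tcf7 UMI in Ex 1 and Ex 2, against 5 of 118 and 7 of 178 in Sed 1 and Sed 2. Of Cd8 T cells, 22 and 16 in Ex lay in the Tbc1d4 and Cx3cr1 cluster, which carried Cd4, against 1 and 2 in Sed. Treg-like were 13 and 8 in Ex and 3 and 7 in Sed. A Pdcd1 UMI was in 55 of 559 and 30 of 317 T cells without a Cd8 UMI in Ex, and 8 of 233 and 16 of 184 in Sed. Which clusters the cells with both UMIs lay in was not tested. As shares of all Cd8 T cells, cells with both UMIs were 3.21% and 2.02% in Ex and 1.28% and 1.46% in Sed, with exact 95% binomial intervals that overlapped (0.658% to 5.54% over the Ex libraries and 0.415% to 2.99% over the Sed libraries). Of these cells 6 of 12 and 5 of 5 also held a UMI of Slamf6, another marker of stem-like cells, in Ex 1 and Ex 2, against 2 of 5 and 3 of 7 in Sed 1 and Sed 2. Cells with a Pdcd1 UMI were the deeper ones in each library (median 6452, 8006, 4895 and 3572 UMIs, against 5965, 5736, 4664 and 2650 without).

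Of all 7454 genes tested across the Pdcd1 gate, 2.08% passed as lower and 1.25% as higher. Of the lists, 7 of 23 other naive genes were lower with a Pdcd1 UMI and none higher (median -0.84). Among those lower were Nsg2 (-4.04 ± 0.41, edgeR adjusted p = 2.66e-06) and Klf3 (-3.05 ± 0.36). Higher were 2 of 9 exhaustion genes, the gate gene Pdcd1 and Nr4a2 (1.39 ± 0.28), 1 of 16 effector genes (Prf1 1.22 ± 0.20) and 1 of 7 residency genes (Rgs1 0.79 ± 0.18). Of 11 dissociation genes 1 was lower (Jun -0.75 ± 0.18).

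CD69, an activation and residency marker, binds the S1PR1 protein and draws it off the cell surface. No member changed between T-like cells with and without a Cd69 UMI (0 of 9; 0.128% of 8592 genes passed, 0.0931% as higher and 0.0349% as lower, 507 genes were at an unadjusted p under 0.05, and DESeq2 called 2 genes in all), and the members' log2 differences lay between -0.19 and 0.15. S1pr1 stood at 101, 207, 94.9 and 28.2 CPM with a Cd69 UMI in Ex 1, Ex 2, Sed 1 and Sed 2, against 128, 227, 84.6 and 36.2 CPM without (-0.15 ± 0.09). It was lower with a Cd69 UMI in 3 of 4 libraries, while 13.6% of all genes tested kept 1 direction in all 4 and 7.8% were higher in all 4. Of 12 dissociation genes Fosb (0.79 ± 0.11, edgeR adjusted p = 4.15e-06) and Egr1 (0.60 ± 0.12) were higher with a Cd69 UMI, and no gene of the other lists passed except the gate gene. Between Cd8 T cells and T cells without a Cd8 UMI, 0.614% of 8954 genes passed as higher and 2.12% as lower. Lower were 7 of 12 dissociation genes (Dusp1 -1.22 ± 0.15) and 2 of 23 other naive genes (Ramp1 -2.36 ± 0.22 and Btg2 -0.77 ± 0.13). So were 2 of 17 effector genes, 1 of 9 exhaustion genes and 1 of 7 residency genes, and no listed gene was higher.

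**Figure D4:**
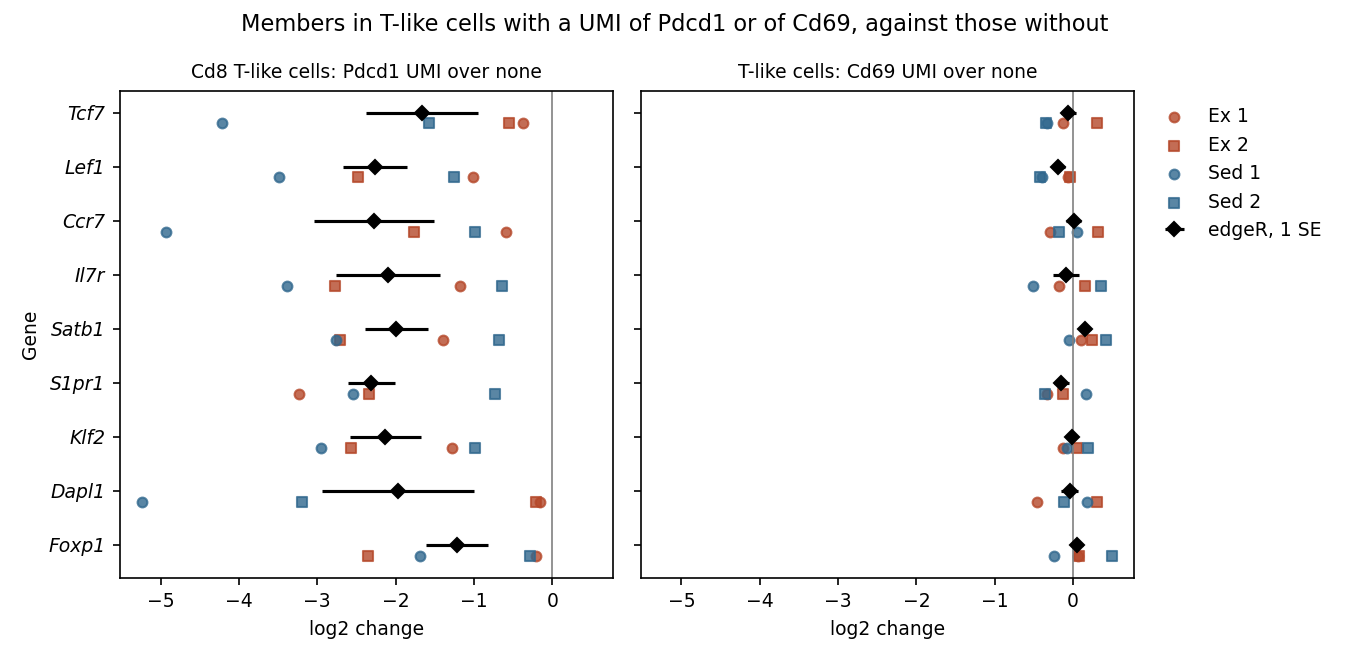
Log2 change of each member in Cd8 T cells with a Pdcd1 UMI over those without (left) and in T-like cells with a Cd69 UMI over those without (right), on 1 scale; diamonds are the edgeR estimate with 1 SE and small points the ratio of CPM in each library, Ex and Sed coloured apart. The estimates run from -2.31 to -1.22 on the left and from -0.19 to 0.15 on the right.

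NK-like cells (234 and 124 cells in Ex, 140 and 80 in Sed) gave levels high enough to test 6 of the 9 genes, and none passed between Ex and Sed (0.445% of 6515 genes passed, 0.123% as higher and 0.322% as lower in Ex; 1108 were at an unadjusted p under 0.05, and DESeq2 called 16). Satb1 stood at 283 and 476 CPM in Ex, against 97.2 and 194 CPM in Sed, with the groups apart (log2 1.33 ± 0.31, edgeR adjusted p = 0.0827). Foxp1, at 168 and 243 CPM in Ex and 80.1 and 83.7 CPM in Sed, and Tcf7, at 108 and 206 CPM in Ex and 40.5 and 87.6 CPM in Sed, were also apart (1.15 ± 0.28, adjusted p = 0.0827, and 1.30 ± 0.37, adjusted p = 0.135, by edgeR). The groups lay apart for 48.4% of all genes tested, for 32.5% as higher in Ex. Lef1, at 42.7 and 73.2 CPM in Ex and 47.7 and 53.3 CPM in Sed, overlapped (-0.0022 ± 0.32). With all 4 libraries kept, Satb1, Foxp1 and Tcf7 passed as higher in Ex with stricter cell filters and at cluster resolution 0.5 (3 of 7 genes tested each). Of all genes, 122 of 6672 and 48 of 6643 were higher in these 2 fits. Satb1 alone passed at resolution 2 (14 of 6541 genes higher). These 3 passed with S1pr1 without the filter on low counts (4 of 9, where 89 of 13205 genes were higher). With a library left out, 1 group has a single library and the other gives all the spread, so only effect sizes are given. The members' log2 differences ran from -0.041 to 3.28 without Sed 2 and from 0.37 to 2.50 without Ex 1. They ran from -0.24 to 1.20 without Sed 1 and from -0.40 to 0.92 without Ex 2.

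In B-like cells (1013 and 1193 cells in Ex, 1340 and 793 in Sed) 7 of the 9 genes were tested and none passed (0.232% of 9061 genes passed, 0.0773% as higher and 0.155% as lower in Ex; 1321 were at an unadjusted p under 0.05, and DESeq2 called 47). Foxp1 stood at 767 and 1017 CPM in Ex, against 543 and 527 CPM in Sed (log2 0.57 ± 0.19, edgeR adjusted p = 0.21), and Satb1 at 347 and 495 CPM in Ex, against 252 and 289 CPM in Sed (0.47 ± 0.21). Ccr7 stood at 338 and 489 CPM in Ex and 226 and 308 CPM in Sed (0.46 ± 0.23). The groups lay apart for 5 of the 7 genes, these 3 with S1pr1 and Klf2, as they did for 48.4% of all genes tested, 34.6% as higher in Ex. Il7r was at 5.90 and 4.17 CPM in Ex and 51.0 and 3.22 CPM in Sed, so its log2 difference of -2.67 ± 1.58 rests on Sed 1. Without Sed 2, which leaves Sed 1 as the only Sed library and the spread to the Ex libraries, the members' log2 differences ran from -3.46 (Il7r) to 0.78 (Ccr7). Of the lists, Gzma alone passed in B-like cells (-3.42 ± 0.40, edgeR adjusted p = 0.0022), and in NK-like cells no listed gene did.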

How the data were processed

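Libraries were made with a droplet 3′ kit, per the labels' protocols, and counted with Cell Ranger 7.0.0 against mm10 (GRCm38), per the submitters' processing notes; the matrix header names cellranger 6.1.1. The authors deposited 1 matrix of raw UMI counts, 31053 genes by 51140 columns, with 28525 barcodes. The first 28525 columns were taken to follow the barcodes in order, which no header states: expression changed 6, 2 and 33 cells from the 3 borders between libraries that the barcodes set. The number after each barcode gave the library, by its row in the authors' aggregation table. The other 22615 columns were not used.

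Barcodes under 200 genes or over 10% mitochondrial UMIs were dropped, and the highest Scrublet doublet scores were removed, up to 0.8% per 1000 cells (293, 144, 422 and 462 cells of Ex 1, Ex 2, Sed 1 and Sed 2). Counts were scaled to 10000 per cell and cells clustered (scanpy 1.11.5, leidenalg 0.10.2, 2000 variable genes, 30 components, 15 neighbours, resolution 1; lymphoid cells again with 20 components). The 9 members were left out of clustering and of marker lists. UMIs were summed per library and cell group and tested with edgeR 4.0.16 (R 4.3.3; quasi-likelihood, TMM, its filter on low counts, Benjamini-Hochberg over all genes, threshold 0.05). Fits across a gate had the library as a block, and fits of Ex against Sed had none. Code was tested on simulated counts. DESeq2 1.42.0 and the other settings in the closing section are alternatives. Members and gene lists were chosen with earlier results of these data known. Named are all members, up to 4 genes of a list by adjusted p, and the 5 genes most like the members' mean (log2 CPM, prior count 2). A further planned gate and some list members are not reported here.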

Additional observations from a re-analysis of the deposited data

Results flagged for a closer look

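For each of the 9 genes the change between Ex and Sed differed between Cd8 T cells and T cells without a Cd8 UMI, by the test of that difference itself (edgeR, library as a block, adjusted p under 0.05). Of 8954 genes tested, 9.94% passed, 4.09% as more positive in Cd8 T cells. The log2 differences, positive where the Ex over Sed change was more positive in Cd8 T cells, were 2.06 for Il7r, 1.96 for Satb1, 1.95 for S1pr1, 1.80 for Lef1, 1.70 for Tcf7, 1.69 for Ccr7, 1.68 for Dapl1, 1.37 for Klf2 and 1.16 for Foxp1. None of the 9 passed without the CD8 T-like cluster, which held most Cd8 T cells of the Sed libraries. In that setting 21 of 8152 genes passed.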

How the results depend on the processing

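Counts of genes called moved by more than 1.5 times under several settings, in some of which fewer cells or genes entered. The cause was not tested. For T cells with against without a Cd8 UMI, 245 genes were called, against 607 without the filter on low counts, 161 with sums thinned to the smallest total, 116 with each cell thinned before the gate, 88 without the Treg-like, gamma-delta-like and NKT-like clusters, 158 without T cells with UMIs of other cells and 1363 without the CD8 T-like cluster, and 148 to 198 with each library left out in turn. For the Pdcd1 gate it was 248, against 141 by DESeq2, 454 without the filter, 147 with thinned sums, 115 with doublets kept and 10 with each cell thinned, and 24 (without Sed 1) to 471 (without Sed 2) with a library left out. For the Cd69 gate it was 11, against 2 by DESeq2, 36 without the filter and 21 with stricter cells (at least 500 genes, at most 5% mitochondrial UMIs), and 12 to 24 with a library left out. For the difference of the exercise changes it was 890, against 263 by DESeq2, 434 with thinned sums, 305 without T cells with UMIs of other cells and 21 without the CD8 T-like cluster, and 458 to 807 with a library left out.

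For Ex against Sed, 577 genes were called in Cd8 T cells, against 289 by DESeq2, 214 with doublets kept, 321 without T cells with UMIs of other cells and 11 without the CD8 T-like cluster, and 236 (without Ex 1) to 840 (without Sed 1) with a library left out. In T cells without a Cd8 UMI none was called, against 4 by DESeq2, 60 without the filter, 7 with doublets kept and 1 without T cells with UMIs of other cells, and 11 (without Ex 1) to 542 (without Sed 2) with a library left out. In NK-like cells it was 29, against 16 by DESeq2, 225 without the filter, 19 with thinned sums, 290 with stricter cells and 105 at cluster resolution 0.5, and 27 to 776 (without Sed 2) with a library left out. In B-like cells it was 21, against 47 by DESeq2, 334 without the filter, 33 with thinned sums, 191 with doublets kept, 92 with stricter cells, 214 at resolution 0.5 and 201 at resolution 2, and 2 (without Ex 1) to 643 (without Sed 2) with a library left out. Replicate numbers do not pair the libraries: the correlation of the deviations of same-numbered libraries was 0.0, 0.009, 0.166 and -0.068 in these 4 fits. With the replicate number as a block, 912, 0, 69 and 19 genes were called. Among Cd8 T cells Dapl1 and Foxp1 then passed with Satb1 as higher in Ex, where 401 of 8518 genes did. Among NK-like cells Tcf7, Satb1 and Foxp1 passed as higher in Ex, where 25 of 6515 genes did.

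Signs turned for members that had not passed before the setting was changed. Across the Cd8 gate, all members but Il7r and S1pr1 passed as higher once the CD8 T-like cluster was left out, where 658 of 8152 genes did. That setting takes out cells low in these genes, nearly all of them from Sed, so it describes the cells that remain. Between T cells with and without a Cd8 UMI, Tcf7 turned to 0.062 with stricter cells, 0.021 when the other T cells were those with a Cd4 UMI, 0.062 without T cells with UMIs of other cells and 0.72 without the CD8 T-like cluster. Lef1 turned to 0.038 against cells with a Cd4 UMI and 0.77 without the CD8 T-like cluster, and Satb1 to 0.43 and 0.38 under the same settings. Without that cluster Il7r turned to 0.062, S1pr1 to 0.29 and Klf2 to 0.43, and without the Treg-like, gamma-delta-like and NKT-like clusters Ccr7 turned to -0.45 and Foxp1 to -0.46 (-0.0072 by DESeq2). With a library left out Tcf7 ran from -0.42 to 0.25, Lef1 from -0.43 to 0.33, Satb1 from -0.72 to 0.092, Klf2 from -0.62 to 0.042 and Foxp1 from -0.22 to 0.25. Across the Cd69 gate Ccr7 turned to -0.018 by DESeq2, -0.069 with stricter cells and -0.48 with each cell thinned, Il7r to 0.006 with each cell thinned and Dapl1 to 0.19 with stricter cells. With a library left out there Ccr7 ran from -0.17 to 0.13, Dapl1 from -0.20 to 0.19, Foxp1 from -0.0055 to 0.15, Il7r from -0.20 to 0.079, Klf2 from -0.064 to 0.025 and Tcf7 from -0.26 to 0.048.

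Between Ex and Sed in Cd8 T cells, leaving out the CD8 T-like cluster turned Lef1 to -0.29, Ccr7 to -0.39, Il7r to -0.40, Klf2 to -0.55 and Dapl1 to -0.53. In T cells without a Cd8 UMI Satb1 turned to -0.084 with thinned sums, -0.17 with stricter cells and -0.080 without T cells with UMIs of other cells, S1pr1 to -0.18 without such cells and Foxp1 to -0.12 with stricter cells. With a library left out Satb1 ran from -0.36 to 0.39, S1pr1 from -0.38 to 0.96, Foxp1 from -0.29 to 0.48, Tcf7 from -0.40 to 0.92, Klf2 from -1.01 to 0.073 and Dapl1 from -1.37 to 1.08. In NK-like cells Lef1 turned to 0.0099 by DESeq2, 0.013 without the filter, 0.14 with doublets kept, 0.21 with stricter cells, 0.32 at resolution 0.5 and 0.096 at resolution 2, and ran from -0.37 to 0.37 with a library left out, as Klf2 did from -0.40 to 0.80. In B-like cells Klf2 turned to -0.024 with thinned sums, -0.034 with doublets kept, -0.091 with stricter cells, -0.046 at resolution 0.5 and -0.043 at resolution 2, and ran from -0.12 to 0.16 with a library left out, while Il7r ran from -3.46 to 0.40.

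Without the filter on low counts 7 of 9 members passed as higher in Ex in Cd8 T cells, where 353 of 14901 genes did. The levels over all T-like cells kept within 1 SD when averaged over cells. The Pdcd1 gate rests on 17 and 14 cells of Ex 1 and Ex 2. For Ex against Sed, leaving out a library leaves its group with 1 library, assumed to vary like the other.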
